A study of Arabidopsis thaliana with 48 samples.

Results

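This report describes 10 genes of iron uptake and coumarin secretion in Arabidopsis thaliana, taken by locus from the 32678 genes counted in roots and shoots of myc2-3 and MYC2-FLAG plants. The genes were IRT1 (AT4G19690), FRO2 (AT1G01580), FIT (AT2G28160), BHLH38 (AT3G56970), MYB72 (AT1G56160), F6'H1 (AT3G13610), S8H (AT3G12900), CYP82C4 (AT4G31940), ABCG37 (AT3G53480, also PDR9) and BGLU42 (AT5G36890). They were chosen by known role, with earlier results of these data known. All 10 passed the filter of more than 100 counts over all libraries and were among the 21098 genes tested.

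Arabidopsis takes up iron by acidifying the soil, reducing ferric chelates at the root surface and importing ferrous iron into the epidermis. When iron is scarce, bHLH transcription factors switch on the reductase and the importer, and roots also release coumarins, phenolic compounds that chelate and reduce iron. Coumarin release is also known as a link between iron nutrition and root-associated microorganisms, since MYB72 and BGLU42 are required for the systemic resistance that some beneficial bacteria induce.

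RNA was sequenced from 48 libraries, 3 for each of 16 conditions, from plants of 5 weeks grown in FlowPots, a gnotobiotic peat system. The labels give Col-0 as the background of all plants. Each condition joined a tissue (root or shoot), a genotype (myc2-3, a T-DNA insertion mutant of the jasmonate regulator MYC2, or MYC2-FLAG, a jin1-8 mutant carrying a tagged MYC2 driven by its own promoter), a light level (NC, the normal condition, or LP, low photosynthetically active radiation, which the sample labels call shade) and the absence (-BFO) or presence (+BFO) of a synthetic community of bacteria, fungi and oomycetes. Both lines are thus built on a loss of the native MYC2, and no wild-type library was analysed here. All libraries of 1 genotype came from 1 sequencing project, so a difference between genotypes cannot be told apart from one between projects. According to the study's methods, most reads of part of the mutant samples came from a latent virus. The same methods give a greater sequencing depth for myc2-3 than for MYC2-FLAG. By the study's methods, the libraries of a condition were biological replicates from a single run of the experiment, so p-values measure the spread between libraries within that run. Levels are CPM, counts in a gene relative to the library's total in genes, scaled by TMM. Differences are log2 fold changes from edgeR's quasi-likelihood test, with p-values adjusted by Benjamini-Hochberg over all genes tested. A gene was called where it differed by 1 or more on the log2 scale in either direction, with an adjusted p below 0.05. Where groups are said not to overlap, this describes the libraries shown, and the share of all genes without overlap is not given.

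Counts in genes ran from 5162823 to 11045467 per library. MYC2 itself was at 23.5 to 41.0 CPM in myc2-3 roots and at 109.9 to 211 CPM in MYC2-FLAG roots, with no overlap between the genotypes. The BFO labels could not be checked in this way. In roots, 1431 genes differed by the BFO label under NC in both genotypes, and 1429 of them moved in opposite directions, while under LP the same held for 1641 of 1682 genes. Mean root profiles of the same label correlated negatively between the genotypes (r from -0.76 to -0.50 over genes), and those of the same light and the other BFO label correlated positively (r from 0.58 to 0.77). Of the 24 ways to pair the 4 root conditions of each genotype, the pairing by label ranked 24 by summed correlation. In shoots it ranked 9 of 24. Conditions are given as labelled. If the +BFO and -BFO labels of 1 genotype were exchanged, its BFO differences would keep their size and change sign. Its 2 light differences would exchange names, and its light by BFO interactions would change sign. Each genotype difference within 1 condition would compare another pair of groups. Whether the genotypes respond in opposite ways or labels differ cannot be told apart from these counts, and the genotype difference averaged over the 4 conditions does not depend on it.

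The upstream sequences of BHLH38, F6'H1 and ABCG37 are shown because these 3 genes were called lower with BFO in MYC2-FLAG roots and higher in myc2-3 roots under NC. They are the 250 bases before the gene start in the RefSeq annotation of TAIR10.1, 5′ to 3′ on the gene's strand, with every E-box (CANNTG, both strands), the core sequence that bHLH factors bind, in capitals. The G-box CACGTG, which MYC2 prefers, is 1 form of the E-box. The counts were joined to this annotation by locus only.
BHLH38 (TAIR10.1 chr3:21085246-21085495, minus strand): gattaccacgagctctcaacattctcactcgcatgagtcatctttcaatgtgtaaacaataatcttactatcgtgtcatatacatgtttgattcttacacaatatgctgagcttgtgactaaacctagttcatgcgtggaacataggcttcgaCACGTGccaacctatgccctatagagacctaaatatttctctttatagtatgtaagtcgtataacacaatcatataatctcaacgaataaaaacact
F6'H1 (TAIR10.1 chr3:4449009-4449258, plus strand): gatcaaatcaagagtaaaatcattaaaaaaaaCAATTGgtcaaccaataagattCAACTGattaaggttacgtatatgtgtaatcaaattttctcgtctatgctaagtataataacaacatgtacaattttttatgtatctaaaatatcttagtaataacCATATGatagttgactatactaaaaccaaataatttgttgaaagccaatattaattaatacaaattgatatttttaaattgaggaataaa
ABCG37 (TAIR10.1 chr3:19825017-19825266, plus strand): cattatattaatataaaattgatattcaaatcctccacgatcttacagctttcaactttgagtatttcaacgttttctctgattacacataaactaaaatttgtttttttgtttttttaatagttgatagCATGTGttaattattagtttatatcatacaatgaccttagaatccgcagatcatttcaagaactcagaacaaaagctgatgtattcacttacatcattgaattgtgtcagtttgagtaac

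The BHLH38 window held 1 G-box, starting at position -97, and no other E-box. The F6'H1 window held 3 E-boxes and the ABCG37 window held 1, none of them a G-box. Over the 10 genes, 1 window held a G-box and 5 held an E-box, against 6.49% and 55.3% of the windows of 27443 protein-coding genes.

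The 10 genes were mostly root genes. Over 24 root libraries, mean levels per kilobase of exon ran, from high to low, from 160.2 CPM per kb for F6'H1 and 146 for IRT1, through 112 for ABCG37, 79.1 for FRO2, 56.9 for CYP82C4, 32.3 for FIT and 31.1 for S8H, to 8.06 for BGLU42, 4.85 for BHLH38 and 1.33 for MYB72. In the comparison of root with shoot, averaged over 4 conditions, 9 of 10 genes were called higher in roots in MYC2-FLAG, where 24.4% of all genes tested were called higher, and 9 of 10 in myc2-3, where 25.3% were. The exception in both genotypes was BGLU42, a beta-glucosidase that releases coumarins from their glucosides, at a median of 18.3 CPM in roots and 19.7 CPM in shoots. Markers of tissue identity separated roots from shoots as labelled. The summed level of 6 root hair markers was 166 to 631 CPM in roots, and no shoot library held more than 5 counts of them.

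**Figure D1:**
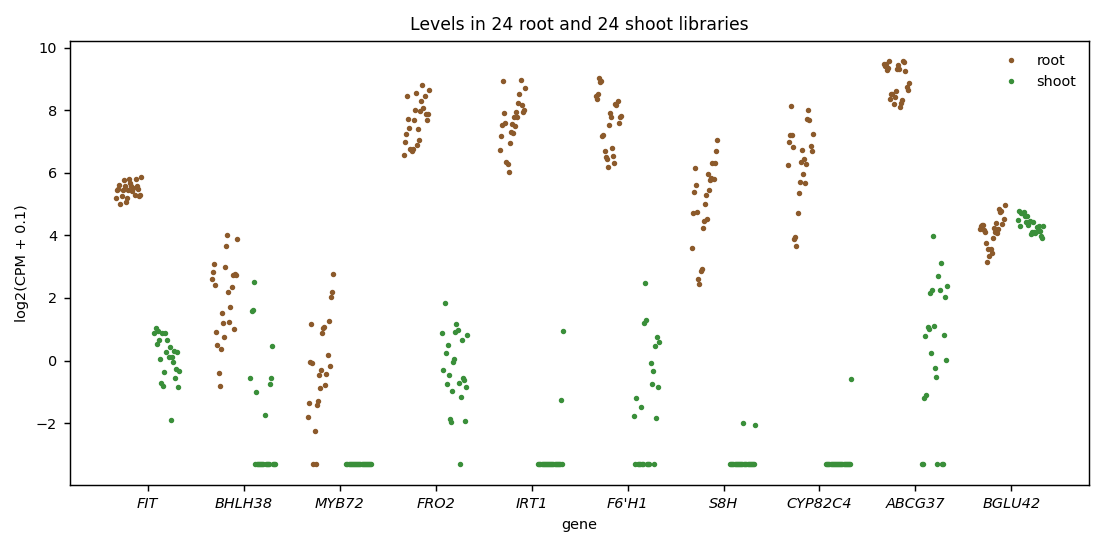
Level of each gene on a log scale, log2(CPM + 0.1), in 24 root (brown) and 24 shoot (green) libraries, each point 1 library. IRT1, S8H, CYP82C4 and MYB72 lie on the floor in nearly every shoot library, while BGLU42 lies at the same height in both tissues.

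FIT, the bHLH factor required for induction of IRT1 and FRO2, was the steadiest of the 10 genes in roots. Its level was 31.9 CPM at the lowest, 44.4 at the median and 58.4 at the highest of the 24 root libraries. Its highest condition mean was 1.35 times its lowest, and the ranges of all 7 neighbouring conditions in the order of means overlapped. FIT was not called in any of the root comparisons of BFO, light or genotype, and its largest difference there was between genotypes under NC +BFO, at 0.43 ± 0.16 (SE, adjusted p = 0.0352).

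**Figure D2:**
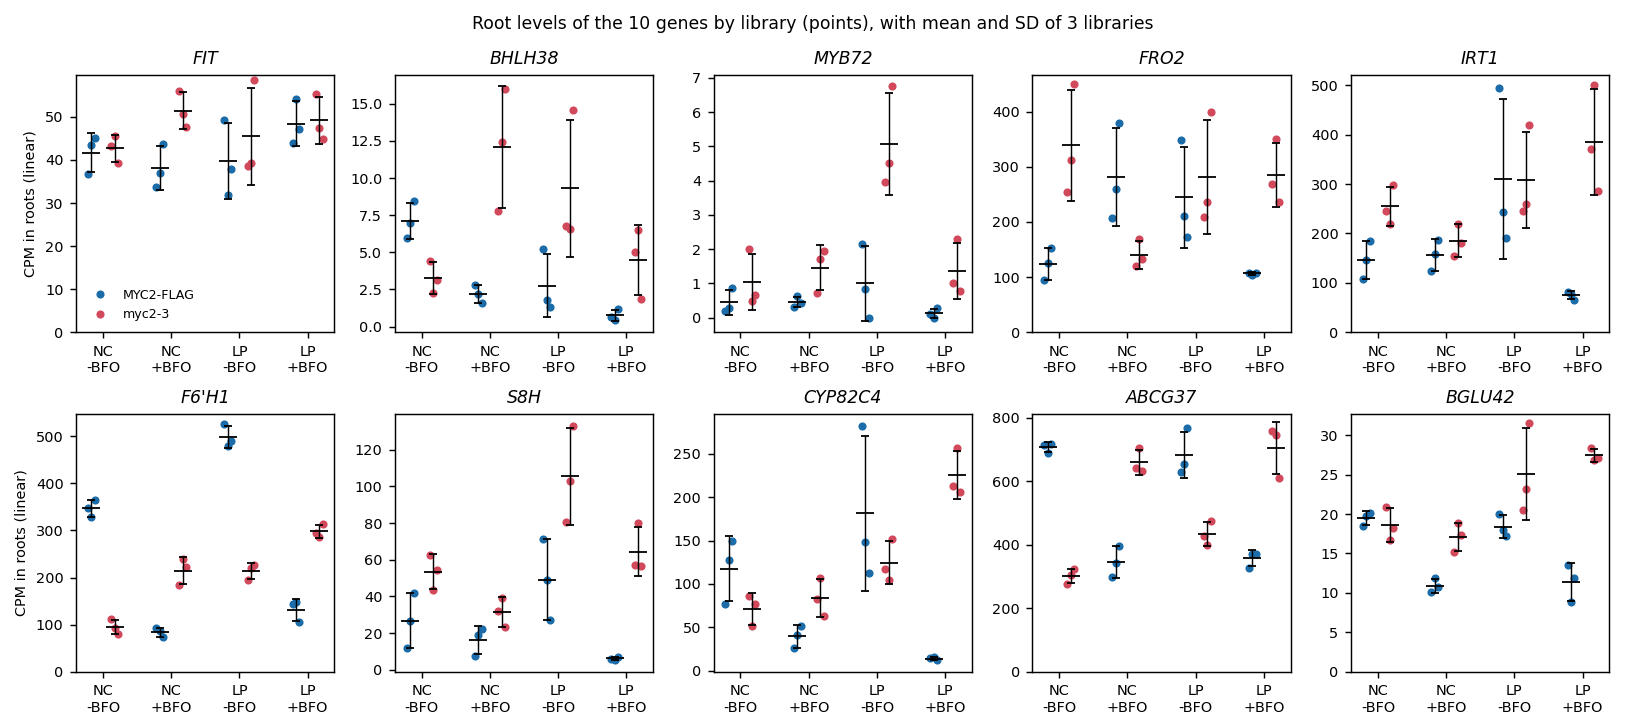
Root level in CPM, on linear axes, of each gene by light and BFO label for MYC2-FLAG (blue) and myc2-3 (red). Points are libraries, and black bars give the mean and SD of 3 libraries. FIT stays between 31.9 and 58.4 CPM, while F6'H1 and ABCG37 alternate between high and low with the BFO label and in opposite order in the 2 genotypes.

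In MYC2-FLAG roots under LP, the genes of uptake and of coumarin synthesis were lower with BFO. IRT1, the ferrous iron importer, was at 494, 243 and 192 CPM without and 82.05, 78.1 and 65.5 CPM with BFO. S8H, which hydroxylates scopoletin to fraxetin, was at 71.2, 48.999 and 27.1 and 5.995, 5.39 and 7.12 CPM. CYP82C4, which oxidizes fraxetin to sideretin, was at 282, 149 and 113 and 14.7, 15.5 and 12.6 CPM. For all 3 genes every +BFO library lay below every -BFO library. Log2 fold changes were -2.04 ± 0.30 (SE, adjusted p = 4.48e-06) for IRT1, -2.97 ± 0.39 (SE, adjusted p = 5.61e-07) for S8H and -3.67 ± 0.33 (SE, adjusted p = 1.16e-09) for CYP82C4. F6'H1, the enzyme that commits feruloyl-CoA to scopoletin, fell from 525, 480.04 and 491 to 143, 147 and 105 CPM, a log2 fold change of -1.92 ± 0.18 (SE, adjusted p = 7.84e-11). FRO2, the ferric chelate reductase, fell from 349, 211 and 174 to 108, 104 and 108 CPM (-1.19 ± 0.25 SE, adjusted p = 1.70e-04). With MYB72, 6 of 10 genes were called lower and none higher, against 15.8% of all genes called in either direction and 7.87% called lower.

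The MYB72 call rested on few counts. MYB72, the MYB factor that roots need for microbe-induced coumarin release, was at 2.16, 0.845 and 0 CPM without and 0.111, 0 and 0.274 CPM with BFO, and these ranges overlapped. Its log2 fold change of -2.65 ± 1.05 (SE, adjusted p = 0.0438) lost its call without any one of 5 of the 6 libraries, and was -1.50 without LP -BFO replicate 1, -2.73 without LP -BFO replicate 2, -2.53 without LP +BFO replicate 1, -2.18 without LP +BFO replicate 2 and -3.75 without LP +BFO replicate 3. It was also lost with limma-voom (-1.51). The FRO2 call was lost without LP -BFO replicate 1 (log2 fold change -0.85), the library with the highest level of IRT1, FRO2, S8H, CYP82C4, BHLH38 and MYB72 in its condition. ABCG37 and BGLU42 had lower levels in every +BFO library but stayed under the fold threshold, at -0.94 (adjusted p = 0.00536) and -0.69 (adjusted p = 1.58e-04). BHLH38, a bHLH partner of FIT, was at 5.22, 1.78 and 1.298 and 0.666, 0.469 and 1.19 CPM and was not called (-1.73, adjusted p = 0.0649), but was called at -2.08 without LP -BFO replicate 3. Of 5 green tissue markers, 4 were also called lower in these +BFO roots, with summed levels of 669 to 799 CPM without and 223 to 381 CPM with BFO, none of the markers being at 0. Their part in the differences was not tested. Of 2 tested root tissue markers, the aquaporin TIP2;3 was called higher, at 13.8 ± 6.08 CPM without and 235 ± 52.9 CPM with BFO (SD, n = 3 each, log2 fold change 4.07), and RCI3 was not called. Its part was not tested either.

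In MYC2-FLAG roots under NC the genes split. F6'H1 went from 348, 328 and 365 CPM without BFO to 91.9, 86.5 and 72.8 CPM with BFO, and ABCG37, the ABC transporter that exports coumarins, from 713, 689.7 and 718 to 297, 341 and 397 CPM. FRO2 went the other way, from 94.1, 126 and 152 to 207, 259 and 379.95 CPM. None of these pairs of groups overlapped. Log2 fold changes were -2.05 ± 0.18 (SE, adjusted p = 3.44e-11) for F6'H1, -1.03 ± 0.28 (SE, adjusted p = 0.00304) for ABCG37 and 1.18 ± 0.25 (SE, adjusted p = 2.43e-04) for FRO2. CYP82C4 (-1.57) and BHLH38 (-1.705) were also called lower, so that 4 genes were lower and 1 higher, against 12.0% of all genes called, 7.16% lower and 4.89% higher. IRT1, at 107, 146 and 185 CPM without and 124, 158 and 187 CPM with BFO, overlapped between the groups (0.097, adjusted p = 0.835). The ABCG37 call was lost without NC +BFO replicate 1 (-0.94) and the FRO2 call without NC +BFO replicate 3 (0.91). The BHLH38 call was lost without NC -BFO replicate 3 (-1.58), NC +BFO replicate 2 (-1.72) or NC +BFO replicate 3 (-1.51), while S8H was called at -1.06 without NC -BFO replicate 1. With DESeq2, neither BHLH38 nor ABCG37 was called.

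In myc2-3 roots under NC, 4 of the 5 genes called in MYC2-FLAG were called in the opposite direction with the BFO label. The other was CYP82C4 (0.23, adjusted p = 0.608). Of all 1431 genes called in both genotypes under NC, 1429 were opposite, so this direction does not set the 4 genes apart. F6'H1 went from 111, 93.02 and 80.4 to 183, 239 and 223 CPM, ABCG37 from 277, 303 and 322 to 642, 705 and 633 CPM and BHLH38 from 4.43, 2.25 and 3.14 to 7.81, 12.4 and 15.98 CPM. FRO2 fell from 254, 313 and 449 to 119.98, 168 and 132 CPM. The groups did not overlap for any of the 4 genes. Log2 fold changes were 1.18 ± 0.18 (SE, adjusted p = 3.18e-06) for F6'H1, 1.13 ± 0.28 (SE, adjusted p = 0.00183) for ABCG37, 1.896 ± 0.56 (SE, adjusted p = 0.0108) for BHLH38 and -1.27 ± 0.25 (SE, adjusted p = 1.41e-04) for FRO2. These 3 genes higher and 1 lower compare with 8.92% of all genes called, 5.44% higher and 3.48% lower. The BHLH38 call was lost without NC +BFO replicate 3 (1.64) or NC -BFO replicate 2 (1.67), and DESeq2 called neither BHLH38 nor ABCG37. Within each genotype FRO2 and F6'H1, which lie in the reductive and the coumarin branch, thus moved in opposite directions under NC.

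In myc2-3 roots under LP, MYB72 was the only 1 of the 10 genes called, lower with BFO, against 16.4% of all genes called and 9.58% called lower. It was at 3.96, 4.51 and 6.76 CPM without and 1.02, 2.29 and 0.778 CPM with BFO, with no overlap (-1.898 ± 0.62 SE, adjusted p = 0.0156). The call was lost without LP +BFO replicate 1 (-1.74), LP +BFO replicate 3 (-1.61) or LP -BFO replicate 3 (-1.63), and with DESeq2 (-1.89). F6'H1, CYP82C4 and ABCG37 were higher in every +BFO library but under the fold threshold, at 0.48 (adjusted p = 0.0235), 0.85 (adjusted p = 0.0173) and 0.703 (adjusted p = 0.0361). CYP82C4 was called at 1.02 without LP -BFO replicate 3. IRT1 levels of 246, 259 and 419 CPM and 371, 499.7 and 286 CPM overlapped (0.32, adjusted p = 0.389). TIP2;3 was called lower with BFO in these roots, from 122 ± 21.6 to 28.0 ± 14.1 CPM (SD, n = 3 each, -2.12), and its part was not tested.

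The difference between the genotypes in the BFO effect was tested as an interaction. Under NC, 5 genes were called, against 24.7% of all genes, with 3.23 ± 0.25 (SE, adjusted p = 5.81e-13) for F6'H1, 3.601 ± 0.81 (SE, adjusted p = 4.67e-04) for BHLH38, 2.17 ± 0.39 (SE, adjusted p = 1.58e-05) for ABCG37, 1.802 ± 0.41 (SE, adjusted p = 7.79e-04) for CYP82C4 and -2.46 ± 0.35 (SE, adjusted p = 2.93e-07) for FRO2. Positive values mean a higher +BFO to -BFO ratio in myc2-3. Under LP, 6 genes were called, all positive, against 33.9% of all genes, and CYP82C4 had 4.52 ± 0.43 (SE, adjusted p = 1.69e-09), the largest of them. FRO2 had opposite signs under the 2 light levels, -2.46 under NC and 1.21 under LP, and its LP call was lost without MYC2-FLAG LP -BFO replicate 1 (0.86). With so many of all genes called, these counts describe the 10 genes and do not set them apart. Under LP, TIP2;3 had an interaction of -6.19, and its part was not tested.

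**Figure D3:**
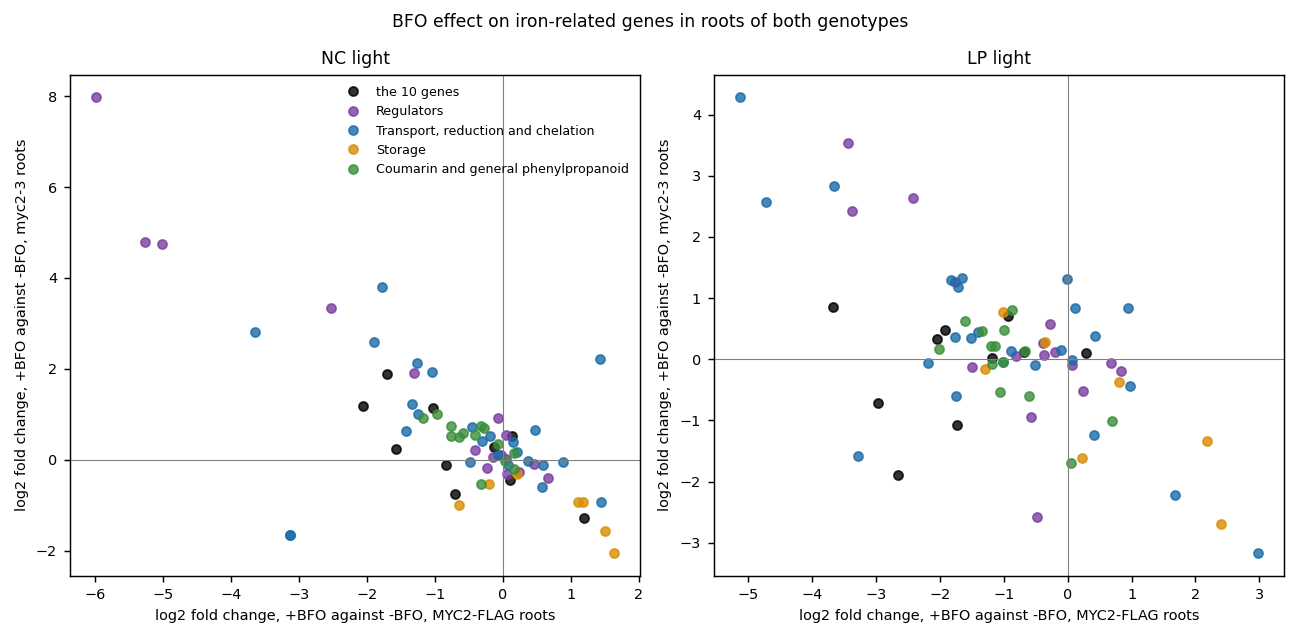
Log2 fold change of +BFO against -BFO in MYC2-FLAG roots (x axis) and myc2-3 roots (y axis), under NC (left) and LP (right), for the 10 genes (black) and 4 lists of iron-related and phenylpropanoid genes (colours). Each point is 1 gene. Under NC most points that lie far from 0 fall in the upper left or lower right, higher in 1 genotype and lower in the other.

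Other iron genes were also called in opposite directions in the 2 genotypes. Their lists were chosen by known function, with earlier results of these data known. Of all root genes called in both genotypes, 1429 of 1431 under NC and 1641 of 1682 under LP were opposite too. Of 16 regulators, 5 were called lower and none higher with BFO in MYC2-FLAG under NC, against 7.16% of all genes called lower. These were IMA1, IMA2 and IMA3, which encode small peptides that signal iron deficiency, and BHLH39 and BHLH101, relatives of BHLH38. IMA3 (-5.25 ± 1.84 SE) lay at the floor with BFO, so its fitted value depends on the prior count. In myc2-3 under NC, IMA1, IMA2, BHLH39 and BHLH101 were called higher and none lower, against 5.44% of all genes called higher. IMA1 was at 2.49 ± 0.9504 CPM (SD, n = 3) without and 0.0637 ± 0.0556 CPM with BFO in MYC2-FLAG, and at 0.073004 ± 0.0632 and 2.17 ± 0.5604 CPM in myc2-3. BHLH39 lies beside BHLH38 and is close to it in sequence. Reads that aligned to both genes would fall among those not uniquely aligned and be counted in neither. It was at 58.4 ± 10.8 and 10.12 ± 1.88 CPM in MYC2-FLAG (-2.53 ± 0.36 SE, adjusted p = 1.11e-06) and at 9.56 ± 2.57 and 96.2 ± 22.1 CPM in myc2-3 (3.34 ± 0.37 SE, adjusted p = 1.38e-08). Under LP, 4 regulators were called lower in MYC2-FLAG, against 7.87% of all genes called lower. In myc2-3, 3 were called higher and BHLH100 lower, against 6.86% and 9.58% of all genes. The median over all 16 was -0.11 in MYC2-FLAG and 0.16 in myc2-3 under NC, beside 0.02 and -0.02 over all genes tested, and -0.43 and 0.06 under LP, beside -0.01 and -0.05.

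Of 25 tested genes of transport, reduction and chelation, 12 were called lower and none higher with BFO in MYC2-FLAG under LP. Of all genes, 7.87% were called lower there. The median was -1.01 over the list and -0.01 over all genes. FRO4 (-5.14), NAS2 (-4.72), FRO5 (-3.67) and NAS1 (-2.18) had the largest differences. With BFO, FRO4 and FRO5 reached no more than 0.333 and 0.352 CPM in any library, so their fitted values depend on the prior count. NAS2, a nicotianamine synthase that makes the iron chelator of the plant interior, was at 207 ± 62.3 CPM without and 7.93 ± 2.72 CPM with BFO (SD, n = 3 each). In myc2-3 under LP the same list had 7 genes called higher and 1 lower, against 6.86% and 9.58% of all genes. Its median was 0.35 beside -0.05, and NAS2 was at 29.5 ± 4.61 and 177 ± 25.5 CPM (2.58 ± 0.21 SE, adjusted p = 2.17e-10). Under NC, 6 were called lower and 1 higher in MYC2-FLAG, against 7.16% and 4.89% of all genes. In myc2-3, 6 were called higher and none lower, against 5.44% of all genes called higher. The medians were -0.31 and 0.42, beside 0.02 and -0.02 over all genes. OPT3, a phloem iron transporter, was at 94.8 ± 4.87 and 27.6 ± 5.74 CPM in MYC2-FLAG and at 16.2 ± 4.69 and 225 ± 63.9 CPM in myc2-3 under NC.

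Under NC, iron storage genes that were called were higher with BFO in MYC2-FLAG and lower in myc2-3. FER1, the iron-storage protein ferritin, was at 33.4 ± 4.25 CPM without and 104 ± 15.1 CPM with BFO in MYC2-FLAG under NC (1.64 ± 0.23 SE, adjusted p = 2.69e-07) and at 114 ± 7.802 and 27.5 ± 3.55 CPM in myc2-3 (-2.05 ± 0.23 SE, adjusted p = 5.55e-09). Of 7 tested storage genes, 4 were called higher and none lower in MYC2-FLAG under NC, against 4.89% of all genes called higher, while 3 were called lower and none higher in myc2-3, against 3.48% called lower. The list's medians were 1.10 and -0.93, beside 0.02 and -0.02 over all genes. Under LP, FER1 and FER4 were called higher and the vacuolar transporter relatives VTL1 and VTL5 lower in MYC2-FLAG, and FER1, VTL2 and FER4 were called lower in myc2-3, against 15.8% and 16.4% of all genes in either direction. The medians were 0.22 and -0.37, beside -0.01 and -0.05. Of 14 genes of coumarin and general phenylpropanoid synthesis, 9 were called lower with BFO in MYC2-FLAG under LP, with 4CL3 (-2.01), CCoAOMT1 (-1.61), COSY (-1.34) and PAL1 (-1.21) the most, against 7.87% of all genes called lower, and only CCoAOMT1 under NC, against 7.16%. COSY, the coumarin synthase, was at 93.3 ± 5.77 CPM without and 36.8 ± 2.23 CPM with BFO. In myc2-3, 4CL1 (1.01) was the 1 gene of the 14 called under NC and BGLU23 (-1.70) the 1 called under LP, against 8.92% and 16.4% of all genes. The medians were -0.37 under NC and -1.04 under LP in MYC2-FLAG, and 0.53 and 0.15 in myc2-3. The interaction with genotype was called for 7 of the 14 under NC, all positive, against 24.7% of all genes, and for 10 under LP, 8 positive and 2 negative, against 33.9%. Root hair markers, which mark the cells that hold much of the uptake machinery, had no gene of 6 called for BFO under NC in either genotype. Under LP 1 of 6 was called lower in each genotype, RHD6 in MYC2-FLAG (-1.12) and RHS19 in myc2-3 (-1.42). Each was higher with BFO in the other genotype, under the fold threshold, RHD6 at 0.94 and RHS19 at 0.82. The LP interaction with genotype was called for RHD6 (2.06), PRP3 (-1.10) and RHS19 (-2.24), against 33.9% of all genes. Medians of the markers were 0.20 and -0.20 under NC and 0.36 and -0.50 under LP in MYC2-FLAG and myc2-3. Of all genes, 12.0%, 8.92%, 15.8% and 16.4% were called for BFO in the same 4 comparisons. The part of these markers was not tested. In bulk roots, fewer cells of a type and less RNA per cell cannot be told apart.

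Between light levels, 1 of the 10 genes was called without BFO and 2 other genes with BFO in MYC2-FLAG roots. Without BFO, IRT1 was at 107, 146 and 185 CPM under NC and 494, 243 and 192 CPM under LP, with no overlap (1.08 ± 0.29 SE, adjusted p = 0.0127), the only gene called, against 4.19% of all genes and 1.92% called higher. That call was lost without NC -BFO replicate 1 (0.90) or LP -BFO replicate 1 (0.57), and with limma-voom (0.99). FRO2, BHLH38 and S8H gained a call in 1 or more of the same exclusions, FRO2 at 1.15 without NC -BFO replicate 3, 1.07 without LP -BFO replicate 2 and 1.17 without LP -BFO replicate 3, BHLH38 at -2.196 without LP -BFO replicate 1, and S8H at 1.34 without NC -BFO replicate 3 and 1.18 without LP -BFO replicate 3. With BFO, FRO2 fell from 207, 259 and 379.95 CPM under NC to 108, 104 and 108 CPM under LP (-1.401 ± 0.25 SE, adjusted p = 0.001105), and CYP82C4 fell from 26.4, 40.8 and 51.7 to 14.7, 15.5 and 12.6 CPM (-1.48 ± 0.32 SE, adjusted p = 0.0118). These 2 genes called lower compare with 0.882% of all genes called and 0.322% called lower. The CYP82C4 call was lost without LP +BFO replicate 2 (-1.55), LP +BFO replicate 3 (-1.40) or NC +BFO replicate 3 (-1.25), and S8H was called at -1.72 without NC +BFO replicate 1. With no filter on low counts, IRT1 (-1.05) and S8H (-1.38) were also called. The interaction of light and BFO was called for 4 genes in MYC2-FLAG, -2.38 ± 0.35 (SE, adjusted p = 1.42e-05) for FRO2, -2.27 (adjusted p = 0.00433) for S8H, -2.14 (adjusted p = 0.00102) for IRT1 and -2.103 (adjusted p = 0.00161) for CYP82C4, against 6.15% of all genes called. Green tissue markers moved here too, with 4 of 5 called higher under LP without BFO, and TIP2;3 was called lower (-3.56). Their part was not tested.

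In myc2-3 roots, every gene called between the light levels was higher under LP. Without BFO, F6'H1 rose from 111, 93.02 and 80.4 to 195, 221 and 226 CPM (1.17 ± 0.18 SE, adjusted p = 1.09e-05) and MYB72 from 1.99, 0.482 and 0.649 to 3.96, 4.51 and 6.76 CPM (2.33 ± 0.63 SE, adjusted p = 0.0121), 2 genes called higher against 2.85% of all genes called higher and 4.73% in either direction. The MYB72 call was lost without NC -BFO replicate 2 (1.94), NC -BFO replicate 3 (2.11) or LP -BFO replicate 3 (2.06), and S8H was called at 1.12 without NC -BFO replicate 1 and at 1.15 without LP -BFO replicate 1. With BFO, 4 genes were called higher and none lower, against 0.654% of all genes called higher and 3.80% in either direction. CYP82C4 rose from 82.2, 107 and 62.997 to 213, 256 and 206 CPM (1.42 ± 0.29 SE, adjusted p = 0.00171), a call that held without any 1 library. IRT1 (1.06, adjusted p = 0.0164), FRO2 (1.02, adjusted p = 0.00455) and S8H (1.03, adjusted p = 0.0413) lay near the threshold. The IRT1 call was lost without NC +BFO replicate 1 (0.94), NC +BFO replicate 3 (1.04) or LP +BFO replicate 2 (0.82), and the FRO2 call without NC +BFO replicate 1 (0.92), NC +BFO replicate 3 (0.98) or LP +BFO replicate 2 (0.85). The S8H call held in 1 of 6 exclusions and was lost without NC +BFO replicate 1 (1.04), NC +BFO replicate 3 (0.86), LP +BFO replicate 1 (1.11), LP +BFO replicate 2 (0.85) or LP +BFO replicate 3 (1.12). The interaction of light and BFO was called for FRO2 (1.29, adjusted p = 0.00533) and BHLH38 (-2.98, adjusted p = 0.00507) in myc2-3, against 12.3% of all genes called. Of 5 markers of green shoot tissue, LHCB2.1 (1.97) and LHCB1.3 (1.04) were also called higher under LP without BFO, and LHCB1.3 (1.17) with BFO, in these roots, and TIP2;3 was called lower with BFO (-2.30). Their part in the light differences was not tested.

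**Figure D4:**
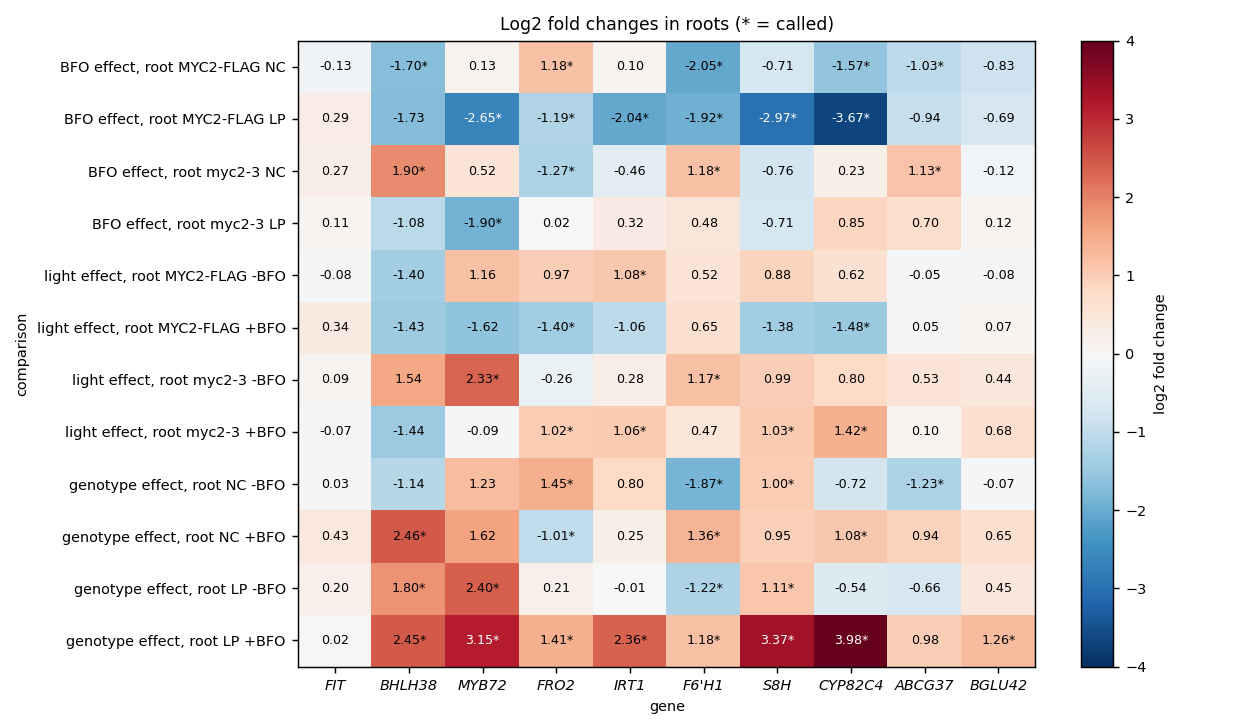
Log2 fold changes of the 10 genes (columns) in the root comparisons of BFO, light (LP against NC) and genotype (myc2-3 against MYC2-FLAG), with red higher and blue lower, and a star for a call. The strongest colours are in CYP82C4, S8H and MYB72, from -3.67 to 3.98, and the FIT column stays near 0.

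Between genotypes, most of the 10 genes differed in roots under LP with BFO. There 8 genes were called higher in myc2-3 and none lower, against 5.91% of all genes called higher and 14.5% in either direction. This comparison, like those in the other root conditions, depends on the BFO labels of both genotypes. CYP82C4 was at 14.7, 15.5 and 12.6 CPM in MYC2-FLAG and 213, 256 and 206 CPM in myc2-3 (3.98 ± 0.33 SE, adjusted p = 3.77e-10). S8H was at 5.995, 5.39 and 7.12 and 57.1, 79.9 and 56.3 CPM (3.37 ± 0.39 SE, adjusted p = 7.80e-08), and IRT1 at 82.05, 78.1 and 65.5 and 371, 499.7 and 286 CPM (2.36 ± 0.30 SE, adjusted p = 6.43e-07). In all 3 the genotypes were far apart, with the lowest myc2-3 library above the highest MYC2-FLAG library. BGLU42 differed as well, at 13.5, 8.79 and 11.9 and 28.4, 26.9 and 27.1 CPM (1.26 ± 0.14 SE, adjusted p = 2.62e-09), its only call in a root comparison. The MYB72 call (3.15) was lost without MYC2-FLAG LP +BFO replicate 2 (2.68) or myc2-3 LP +BFO replicate 2 (2.56). ABCG37 (0.98) was called without MYC2-FLAG LP +BFO replicate 2 (1.01), MYC2-FLAG LP +BFO replicate 3 (1.01) or myc2-3 LP +BFO replicate 3 (1.07). Of 2 tested root tissue markers, TIP2;3 was called lower in myc2-3 (-3.07, adjusted p = 3.11e-09), at 235 ± 52.9 CPM in MYC2-FLAG and 28.0 ± 14.1 CPM in myc2-3 (SD, n = 3 each). Of 5 endodermis markers CASP5 was called lower, of 6 root hair markers RHS19 was called lower, and of 5 green tissue markers LHCB2.1 was called higher. Their part in the genotype differences was not tested.

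In the other 3 root conditions, 4 genes each were called and directions were mixed, against 11.1% of all genes called (4.24% higher and 6.85% lower) under NC -BFO, 11.7% (6.67% higher and 5.04% lower) under NC +BFO and 17.3% (8.84% higher and 8.46% lower) under LP -BFO. F6'H1 was lower in myc2-3 without BFO and higher with BFO, at -1.87 (adjusted p = 2.90e-10) and -1.22 (adjusted p = 5.68e-07) without and 1.36 (adjusted p = 1.66e-07) and 1.18 (adjusted p = 1.35e-06) with BFO. FRO2 was higher in myc2-3 under NC without BFO (1.45, adjusted p = 1.74e-05) and lower with BFO (-1.01, adjusted p = 0.00143), the latter a call lost without MYC2-FLAG NC +BFO replicate 3 (-0.74), myc2-3 NC +BFO replicate 1 (-0.91) or myc2-3 NC +BFO replicate 3 (-0.97). S8H was higher in myc2-3 in every condition, at 1.003, 0.95, 1.11 and 3.37 for NC without and with BFO and LP without and with BFO in turn, without a call under NC +BFO. The S8H call under NC -BFO was lost without MYC2-FLAG replicate 1 (0.65), MYC2-FLAG replicate 2 (1.00), myc2-3 replicate 1 (0.87) or myc2-3 replicate 3 (0.99), and that under LP -BFO without MYC2-FLAG replicate 3 (0.82) or myc2-3 replicate 3 (0.91). Under NC +BFO it was called without MYC2-FLAG replicate 3 (1.25) or myc2-3 replicate 3 (1.13). BHLH38 was higher in myc2-3 under NC +BFO (2.46, adjusted p = 0.00116) and LP -BFO (1.796, adjusted p = 0.010999), the second lost without MYC2-FLAG LP -BFO replicate 2 (1.56), MYC2-FLAG LP -BFO replicate 3 (1.45) or myc2-3 LP -BFO replicate 3 (1.298). CYP82C4 was called under NC +BFO (1.08, adjusted p = 0.00534), lost without MYC2-FLAG replicate 1 (0.86) or myc2-3 replicate 2 (0.87), MYB72 under LP -BFO (2.401, adjusted p = 0.00335) and ABCG37, lower, under NC -BFO (-1.23, adjusted p = 5.82e-04). The FRO2 call under NC +BFO was also lost with limma-voom (-0.98), the S8H call under NC -BFO with DESeq2 (0.99) and the BHLH38 call under LP -BFO with DESeq2 (1.75). ABCG37 was called at 1.05 under NC +BFO without MYC2-FLAG NC +BFO replicate 3, and IRT1 at 1.00 under NC -BFO without MYC2-FLAG NC -BFO replicate 3. Under LP -BFO, TIP2;3 was called higher in myc2-3 (3.12) and 3 of 5 green tissue markers lower. Of the same 5 markers, RBCS1A (-1.22) and LHCB1.3 (-1.52) were called lower and LHCB2.1 (1.72) higher in myc2-3 under NC +BFO. The part of these markers was not tested.

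Averaged over the 4 root conditions, which does not depend on the BFO labels within a genotype, 3 genes were called higher in myc2-3 and none lower, against 0.569% of all genes called higher and 1.33% in either direction. MYB72 had 2.102 ± 0.41 (SE, adjusted p = 6.49e-04), S8H 1.61 ± 0.18 (SE, adjusted p = 1.39e-07) and BHLH38 1.39 ± 0.31 (SE, adjusted p = 0.00138). Each held its call without any 1 of the 24 root libraries. The 12 MYC2-FLAG libraries had MYB72 at 0 to 2.16 CPM with a median of 0.298, and the 12 myc2-3 libraries at 0.482 to 6.76 CPM with a median of 1.83. S8H ran from 5.39 to 71.2 CPM with a median of 20.4 in MYC2-FLAG and from 23.1 to 133 CPM with a median of 56.7 in myc2-3. The ranges of the genotypes overlapped for both genes when the 4 conditions were pooled. CYP82C4 was near the threshold (0.95, adjusted p = 3.45e-05) and was called at 1.00 to 1.07 without any 1 of 4 libraries, MYC2-FLAG NC -BFO replicate 3 (1.00), MYC2-FLAG LP -BFO replicate 1 (1.07), MYC2-FLAG NC +BFO replicate 3 (1.01) or myc2-3 NC -BFO replicate 2 (1.00). F6'H1 (-0.14), ABCG37 (0.01) and FIT (0.17) averaged close to 0. Sequencing project and genotype share these differences.

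Among themselves, the genes fell into overlapping sets across the 24 root libraries. Centred within genotype, IRT1 correlated with S8H (Pearson's r = 0.87), CYP82C4 (0.85) and FRO2 (0.77) in log2 CPM, and F6'H1 correlated with ABCG37 (0.86), CYP82C4 (0.78) and BGLU42 (0.77). FRO2 and F6'H1 had r = -0.16, and FIT had between -0.18 and 0.22 with the other 9 genes. By genotype, FIT had between -0.21 and -0.05 with them in MYC2-FLAG and between -0.18 and 0.59 in myc2-3. These are descriptions over libraries that share conditions. BHLH38 and S8H had r = 0.59 over the 12 MYC2-FLAG root libraries and -0.04 over the 12 myc2-3 root libraries.

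**Figure D5:**
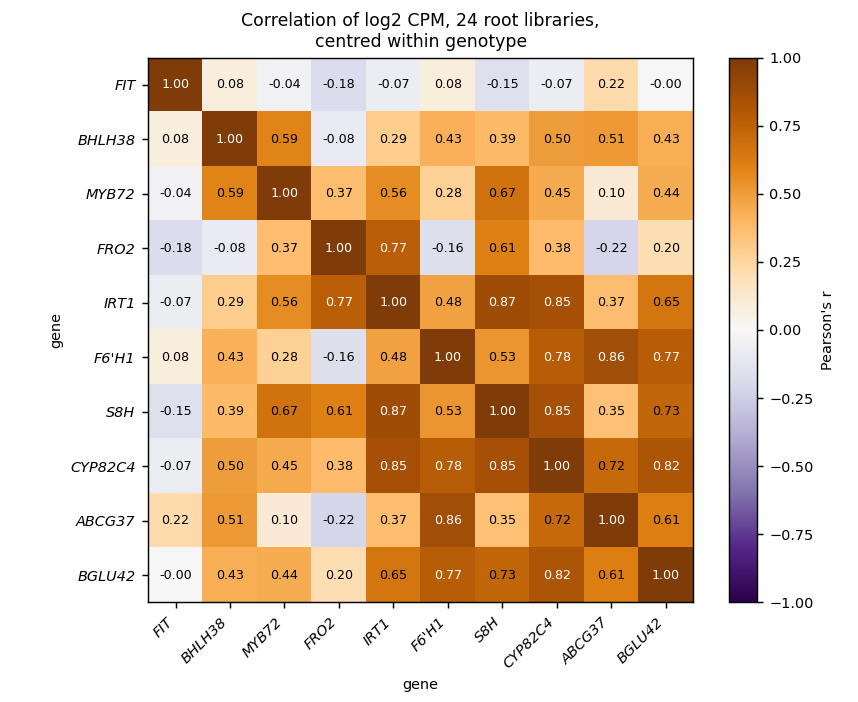
Pearson's r of log2 CPM between pairs of the 10 genes over 24 root libraries, centred within genotype, with orange positive and purple negative. IRT1, S8H and CYP82C4 reach 0.85 to 0.87 with each other, and F6'H1 and ABCG37 reach 0.86.

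Among all genes tested outside the 10, those most like IRT1 by this measure were GLP5 (r = 0.92), AT1G74770 (0.84, BTSL1 of the regulator list, a ubiquitin ligase that restrains iron uptake), AT3G62040 (0.84), ZIP8 (0.83) and AT2G05830 (0.83). Those most like F6'H1 were APR1 (0.99), an enzyme of sulfate reduction, CYP71A12 (0.97), a cytochrome P450 of tryptophan-derived defence compounds, PXMT1 (0.97), TSA1 (0.97), a tryptophan synthase subunit, and AT2G43590 (0.96), annotated as a chitinase. CYP71A12 ran from 17.02 to 488 CPM across root libraries.

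In shoots, levels were low except for BGLU42. No shoot library of either genotype held a count of MYB72. No MYC2-FLAG shoot library held a count of IRT1, S8H or CYP82C4, and in roots of that genotype the mean was then at least 4519-fold higher for IRT1, 644.9-fold for S8H and 2320.0-fold for CYP82C4, against a floor of 3 counts over the 12 shoot libraries. In myc2-3 shoots the 15 counts of IRT1 fell in the LP +BFO condition, at 2, 0 and 13 counts, and all 4 counts of CYP82C4 fell in replicate 3 of it. That library also held 12 counts of FRO2 and 3 of the root hair markers.

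In shoots under NC, F6'H1 and ABCG37 were called higher with BFO in both genotypes. F6'H1 had 2, 0 and 0 counts without and 16, 38 and 15 counts with BFO in MYC2-FLAG (4.87 ± 0.71 SE, adjusted p = 3.76e-06), and 0, 0 and 0 and 5, 2 and 4 counts in myc2-3, where the mean with BFO was at least 4.12-fold higher than a floor of 3 counts over the 3 libraries. ABCG37 had 15, 25 and 7 and 34, 110 and 13 counts in MYC2-FLAG (1.67 ± 0.50 SE, adjusted p = 0.0114) and 5, 3 and 0 and 38, 19 and 50 counts in myc2-3 (3.89 ± 0.76 SE, adjusted p = 6.91e-05). The groups overlapped for ABCG37 in MYC2-FLAG, and that call was lost with limma-voom (1.39), in a fit of shoots alone (1.67) and without NC -BFO replicate 1 (1.51), NC -BFO replicate 3 (1.34) or NC +BFO replicate 2 (0.57). In all, 2 of 10 genes were called in MYC2-FLAG, both higher, against 6.11% of all genes (3.16% higher), and 3 in myc2-3, against 14.6% (8.86% higher and 5.69% lower), the third being FRO2, lower at 12, 11 and 12 against 3, 0 and 2 counts (-2.54, adjusted p = 0.042005). That FRO2 call was lost without any 1 of the 6 libraries, at -2.60, -2.47 and -2.56 without NC -BFO replicate 1, 2 or 3 and at -3.15, -2.13 and -2.61 without NC +BFO replicate 1, 2 or 3, and with limma-voom (-2.59).

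Under LP, ABCG37 was the only gene called in myc2-3 (2.86, adjusted p = 0.00852), against 7.56% of all genes (4.91% higher), a call lost without LP -BFO replicate 1 (2.29), LP -BFO replicate 2 (2.199) or LP +BFO replicate 3 (2.42), and in a fit of shoots alone (2.74). No gene was called in MYC2-FLAG shoots under LP with edgeR or limma-voom, against 9.78% of all genes. There ABCG37, at 9, 3 and 15 counts without and 0, 0 and 2 counts with BFO, was the 1 gene with an unadjusted p under 0.05 and the 1 gene DESeq2 called. The genotypes differed in this effect for ABCG37 (6.12 ± 1.58 SE, adjusted p = 0.00254), against 15.9% of all genes called, and no gene was called for it under NC with edgeR, where 2 had an unadjusted p under 0.05 and DESeq2 called 1.

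BHLH38 was found in shoots mainly under LP. In MYC2-FLAG its counts were 0, 0 and 0 under NC -BFO and 0, 0 and 0 under NC +BFO, and 31, 0 and 3 under LP -BFO and 3, 16 and 18 under LP +BFO. The LP mean was at least 13.4-fold higher without BFO and at least 14.8-fold higher with BFO than the floor of 3 counts over 3 NC libraries. Without BFO, 31 of the 34 counts came from replicate 1, the groups overlapped, and the call was lost without that library and with limma-voom. The call with BFO held without any 1 library. In myc2-3 shoots its counts were 3, 4 and 7 under LP -BFO and 0, 0 and 0 under LP +BFO, and with BFO the mean in MYC2-FLAG was at least 12.8-fold higher than the floor over the 3 myc2-3 libraries. BHLH38 was the only 1 of the 10 genes called between light levels in MYC2-FLAG shoots without BFO, against 19.0% of all genes (11.0% higher). With BFO, F6'H1 fell from 16, 38 and 15 counts under NC to 1, 0 and 2 under LP (-4.11 ± 0.68 SE, adjusted p = 4.37e-06) and ABCG37 from 34, 110 and 13 to 0, 0 and 2 counts (-5.81 ± 0.95 SE, adjusted p = 2.52e-06), so that 3 genes were called, against 19.0% of all genes (10.5% higher and 8.54% lower). The light by BFO interaction was called for ABCG37 in MYC2-FLAG shoots (-4.94 ± 1.42 SE, adjusted p = 0.00599), against 17.5% of all genes, and rested on the 2 counts of the LP +BFO condition.

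Iron regulators of the list moved with light in the same shoots. Under LP, 10 of 16 were called higher and none lower in MYC2-FLAG without BFO, against 11.0% of all genes called higher. The list's median there was 2.02 beside -0.04 over all genes. With BFO, 6 were called higher and URI lower, against 10.5% and 8.54% of all genes. BTSL1, MYB10, BHLH34 and BHLH115 were among the 10, the others being IMA1, IMA2, IMA3, BHLH39, BHLH100 and BHLH101. Some of the 10 lay at or near 0 CPM under NC, so their fitted values depend on the prior count. Without BFO these include BHLH100 (8.36 ± 1.91 SE), BHLH39 (6.74 ± 2.09 SE) and IMA1 (5.61 ± 1.57 SE). How far the calls of these list genes rest on 1 library is not given here. IMA3 was at 0.0422 ± 0.0731 CPM under NC and 8.11 ± 5.51 CPM under LP without BFO, and at 0.256 ± 0.328 and 36.8 ± 13.6 CPM with BFO (SD, n = 3 each). In myc2-3 shoots BTSL1 and MYB10 were called higher under LP without BFO, against 3.79% of all genes called higher. In these shoots no regulator was called with BFO, against 7.70% of all genes. IMA3 was there at 16.6 ± 2.37 CPM under NC and 8.09 ± 6.78 CPM under LP without BFO, and at 0 ± 0 and 0.494 ± 0.537 CPM with BFO.

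Between genotypes, shoots gave few calls and these rested on few counts. Under NC -BFO, FRO2 was higher in myc2-3, at 5, 1 and 1 counts in MYC2-FLAG and 12, 11 and 12 in myc2-3 (2.42 ± 0.91 SE, adjusted p = 0.03002), and ABCG37 was lower (-2.38, adjusted p = 0.0333), against 16.5% of all genes (8.07% higher and 8.44% lower). The FRO2 call was lost without MYC2-FLAG NC -BFO replicate 2 (2.17) or replicate 3 (2.097), without myc2-3 NC -BFO replicate 2 (2.35) or replicate 3 (2.44), and with limma-voom (2.49). The ABCG37 call was lost without MYC2-FLAG NC -BFO replicate 2 (-1.76) or myc2-3 NC -BFO replicate 2 (-2.58) or replicate 3 (-1.78), and in a fit of shoots alone (-2.37). Under NC +BFO, F6'H1 was lower in myc2-3 (-2.23 ± 0.51 SE, adjusted p = 0.002098), against 3.90% of all genes (1.41% lower). Under LP +BFO, ABCG37 (4.76, adjusted p = 5.24e-04) and F6'H1 (2.68, adjusted p = 0.00982) were higher and BHLH38 lower in myc2-3, against 19.4% of all genes (9.99% higher and 9.39% lower), and the F6'H1 call was lost without MYC2-FLAG LP +BFO replicate 2 (2.13). Under LP -BFO, F6'H1 had 0, 0 and 0 counts in MYC2-FLAG and 0, 9 and 1 in myc2-3, and 9 of the 10 counts came from 1 library. It was the 1 gene called there, against 3.59% of all genes (1.61% higher), and the 1 gene called between light levels in myc2-3 shoots without BFO, against 7.26% (3.79% higher). Both calls were lost with limma-voom, in a fit of shoots alone, without that library, myc2-3 LP -BFO replicate 2 (2.74 in each), or without any 1 of the 3 libraries of the group at 0, with fitted values from 5.18 to 5.19 that depend on the prior count.

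BGLU42 was at 15.2 to 27.2 CPM in the 24 shoot libraries and was not called in any shoot comparison of BFO, light or genotype. Averaged over the 4 shoot conditions, none of the 10 genes was called between genotypes with edgeR, limma-voom or DESeq2, against 1.96% of all genes. FIT (-0.53, adjusted p = 0.125) and BGLU42 (-0.40, adjusted p = 4.76e-05) had an unadjusted p under 0.05 there, both below the fold threshold. Between light levels in myc2-3 shoots with BFO none was called with edgeR, against 7.70% of all genes, while IRT1 had an unadjusted p under 0.05 and was called by DESeq2, on 15 counts in 2 libraries.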

How the data were processed

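RNA of roots and shoots was sequenced in 48 libraries of 16 conditions, grouped by GEO's labels. The deposited values are raw read counts per gene, which the authors made with TopHat2 and HTSeq against TAIR10, per the labels and the study's methods. Lines that name no gene were left out of library sizes (1.23 to 4.08% no feature, 0.451 to 0.900% ambiguous, 1.46 to 5.90% not uniquely aligned). Genes with more than 100 counts in all (21098 of 32678) were fitted over all 48 libraries with 1 term per condition, by edgeR 4.0.16's quasi-likelihood test in R 4.3.3 with TMM factors (0.772 to 1.29). P-values were adjusted by Benjamini-Hochberg over these genes in each comparison. The quoted CPM are counts relative to TMM-scaled library totals, per kb over exon length, and correlations used log2 CPM with a prior count of 2. Fold bounds against a group without counts used 3 counts over that group and cover counting error only.

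The members and gene lists were chosen with earlier results of these data known. Genes named are the 10 members, MYC2, per list and comparison up to 4 called genes of largest fold change (and any gene of a count of 5 or fewer), and the 5 genes most like IRT1 and F6'H1. Other genes were named after their values were seen. The scripts were tested on simulated data. Results were recomputed with limma-voom (limma 3.58.1), with DESeq2 1.42.0 or only its size factors, with 2 other filters, a replicate block, each tissue alone and without each library, and, chosen after seeing the data, bias-adjusted quasi-dispersions. Promoter windows came from the RefSeq annotation of TAIR10.1. Genotype cannot be told apart from sequencing project.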

Additional observations from a re-analysis of the deposited data

Results flagged for a closer look

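The effects of BFO in the 2 genotypes, or under the 2 light levels, differed by edgeR's test of the interaction for 19 combinations of gene and comparison. Log2 values compare the ratio of +BFO to -BFO in myc2-3 with that in MYC2-FLAG, or under LP with that under NC.

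In roots under NC, the genotypes differed for BHLH38 (3.60), F6'H1 (3.23), ABCG37 (2.17), CYP82C4 (1.80) and FRO2 (-2.46). In roots under LP, they differed for CYP82C4 (4.52), F6'H1 (2.403), IRT1 (2.36), S8H (2.26), ABCG37 (1.64) and FRO2 (1.21). These 11 differences change sign or size if the BFO labels of 1 genotype are exchanged, which the data cannot settle. Without MYC2-FLAG LP -BFO replicate 1 the FRO2 difference under LP was 0.86 and not called.

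The light levels differed in MYC2-FLAG roots for FRO2 (-2.38), S8H (-2.27), IRT1 (-2.14) and CYP82C4 (-2.103). Summed green tissue markers were highest in the LP -BFO roots of this genotype (669 to 799 CPM), and their part was not tested. In myc2-3 roots the light levels differed for FRO2 (1.29) and BHLH38 (-2.98). These root differences between light levels change sign in a genotype whose BFO labels are exchanged.

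In shoots, ABCG37 differed between genotypes under LP (6.12) and between light levels in MYC2-FLAG (-4.94). Both rest on the MYC2-FLAG LP +BFO condition, which held 2 counts of the gene in all.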

How the results depend on the processing

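Of the 10 genes, none changed the direction of a called difference under any alternative. The counts of genes called moved by over 1.5 times in the following cases. In roots, BFO in MYC2-FLAG under NC gave 5 genes and 3 with DESeq2. In myc2-3 it gave 4 under NC and 2 with DESeq2, and 1 under LP, 2 with limma-voom or with each tissue fitted alone and 0 with DESeq2. Light in MYC2-FLAG without BFO gave 1, and 2 with the replicate block or each tissue alone. Light in MYC2-FLAG with BFO gave 2, and 4 with no filter or with bias-adjusted quasi-dispersions, the latter chosen after seeing the data. Light in myc2-3 without BFO gave 2, and 4 with no filter. In shoots, limma-voom and each tissue alone gave 1 in place of 2 for BFO in MYC2-FLAG under NC and for genotype under NC -BFO, and 0 in place of 1 for light without BFO in both genotypes and for genotype under LP -BFO. For BFO in shoots under LP, DESeq2 gave 1 in place of 0 in MYC2-FLAG and 3 in place of 1 in myc2-3, where each tissue alone gave 0. DESeq2 gave 1 in place of 0 for light in myc2-3 with BFO, 6 in place of 3 for genotype under LP +BFO, 1 in place of 0 for genotype by BFO under NC (1 with each tissue alone) and 2 in place of 1 under LP (2 with limma-voom). The cause of these moves was not tested.

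With 1 library left out, the counts ran in roots from 3 to 6 for BFO in MYC2-FLAG under NC, 4 to 7 under LP, 3 to 4 for myc2-3 under NC and 0 to 1 under LP. For light they ran from 0 to 3 in MYC2-FLAG without and 1 to 3 with BFO, and from 1 to 3 in myc2-3 without and 1 to 4 with BFO. For genotype they ran from 3 to 5 under NC with either BFO label, 2 to 4 under LP -BFO, 7 to 9 under LP +BFO and 3 to 4 on average. In shoots they ran from 1 to 2 for BFO in MYC2-FLAG under NC, 0 to 1 under LP in both genotypes, 0 to 2 for light in MYC2-FLAG without BFO and 0 to 1 in myc2-3, 0 to 2 for genotype under NC -BFO, 0 to 1 under LP -BFO, 2 to 4 under LP +BFO, and for genotype by BFO 0 to 1 under NC and 1 to 2 under LP.

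Replicate numbers did not pair the libraries. In 0 of 24 comparisons of 2 conditions did every same-numbered pair correlate over 0.1 (range -0.24 to 0.45). With the replicate block MYB72 (BFO, MYC2-FLAG roots, LP), S8H (light, myc2-3 roots, +BFO) and FRO2 (genotype, roots, NC +BFO) lost their calls at -2.65, 1.02 and -0.98, FRO2 (light, MYC2-FLAG roots, -BFO) gained one at 1.03, and no other call changed. DESeq2 size factors shifted the median of all genes by -0.113 for genotype in shoots under LP +BFO. Depth limits BHLH38 and MYB72 in roots and every gene but BGLU42 in shoots.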
